A study of Sus scrofa with 48 samples.

Results

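SREBF2, SCAP, INSIG1 and STARD4 are 4 genes through which a liver cell senses its sterols and moves them between membranes. They were taken as every non-control probe of the pig array that carried one of these gene names, or whose transcript accession belonged to one of them in the reference table. The rule found 7 probes for the 4 genes, out of 60305 probes and 12482 named genes, with 2 probes each for SREBF2, SCAP and INSIG1 and 1 probe for STARD4. No gene of LDL uptake is among these 4, so only the sterol sensing side was measured with them.

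SREBF2 encodes a transcription factor, SREBP-2, that is made as a precursor held in the membrane of the endoplasmic reticulum. When membrane cholesterol falls, the chaperone SCAP carries the precursor to the Golgi, where it is cut and its free end enters the nucleus and switches on the genes of cholesterol synthesis. When sterols are plentiful, INSIG1 binds SCAP and keeps the complex in place, and INSIG1 and STARD4, a soluble carrier that moves cholesterol between membranes, are themselves targets of SREBP-2. The precursor's transport and cleavage are changes of protein, which a measurement of RNA does not show.

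Liver RNA of 48 Large White barrows was hybridized to 1 single-colour array per pig. Divergent selection over 8 generations had given lines of low and of high residual feed intake (RFI), the daily feed intake beyond what is predicted from growth and backfat, so that low RFI means an efficient animal. From 74 days of age, 12 pigs per line received a diet rich in fat and fiber (called high-fat below) and 12 a diet poor in both (called low-fat), and all were sampled at about 19 weeks of age and 2 h after a meal. Fat and fiber differed together between the diets, and each line is 1 selected population, so neither can be separated from what else goes with it.

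Every one of the 7 probes exceeded background clearly on each of the 48 arrays, as did 36913 of the 45236 probes tested. Before centring, array medians of intensity lay between 53.04 and 126, no spot was saturated, and the lowest median correlation of an array with the others was 0.979. Each of the 6 slides held 2 arrays of every group and each of the 2 scan days held 6, so slide and day were balanced over line and diet. Levels are given as log2 intensities centred on the median of the array, and a level can be compared between pigs for the same probe but not between probes. Of 40 marker genes of 10 cell types, 34 were tested. The mean level of the hepatocyte markers (ALB, TF, FGB and FGA, 4 of 7 listed) ranged from 9.21 to 10.04 in the low RFI line and from 9.17 to 10.13 in the high RFI line. Each marker gene was read at its brightest probe only. So read, KRT7, a bile duct gene, was the only marker called for line (-0.35, low minus high RFI, in log2), and no marker was called for diet. The paper lists C1QA, taken here as a macrophage marker, among liver genes under-expressed in low RFI pigs.

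The probes are shown first because the 2 probes of SREBF2 and the 2 of INSIG1 did not read alike, and results are given by probe. Each probe is 60 bases long. The first INSIG1 probe is shown whole. It starts at base 818 of the transcript, whereas the second INSIG1 probe starts at base 1651. For the others 30 bases are shown, around a polyadenylation hexamer (AATAAA or ATTAAA, in capitals) where the printed strand of the probe held one. Such a hexamer lies near the end of most transcripts, and 14.1% of all probes on the array held one.
INSIG1, first probe: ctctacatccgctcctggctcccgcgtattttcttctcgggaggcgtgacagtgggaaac
INSIG1, second probe: gtgtgtcactgcATTAAAcatcgggtgttt
SREBF2, first probe: accctcccctccttccctgtttttatcagg
SREBF2, second probe: tgtgggttattcAATAAAcacagatcggta
STARD4: aaatccaccaagaagtaAATAAAgagtttt
SCAP, first probe: gcctcatgactgtaatATTAAAcctttttt
SCAP, second probe: tgctggaaaagctggactgagagtgagcaa

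For each gene the first probe is the one of higher mean level (A_72_P255532 for SREBF2, A_72_P358583 for SCAP, A_72_P186291 for INSIG1), and the second probes are O8965, O12980 and A_72_P442208. STARD4 has only A_72_P295104. A search for shared runs of 20 bases on either strand, over the whole array, found 1 other probe, A_72_P374888, that shared 51 of its bases with the second SREBF2 probe. That other probe belongs to a pig cDNA clone that carries no gene name in the files. The second SREBF2 probe carries the gene name but an accession that the pig reference table does not hold, as does the second SCAP probe, and the first SREBF2 probe was matched by name only.

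The first SREBF2 probe was among the steadiest signals on the array. With this probe, the SD between pigs of a group was 0.10, and only 0.287% of the tested probes had a smaller one, while 95.2% of probes were dimmer. In pigs from the low RFI line fed the high-fat diet the level ran from 6.06 to 6.38 with a median of 6.28, and in pigs from the high RFI line fed that diet from 6.06 to 6.39 with a median of 6.20. On the low-fat diet it ran from 6.15 to 6.44 with a median of 6.31 in the low RFI line, and from 5.98 to 6.43 with a median of 6.28 in the high RFI line. The 4 groups overlapped almost entirely. In the order of the means, the low RFI line on the low-fat diet (6.31 ± 0.094, SD, n = 12) came first and the high RFI line on the high-fat diet (6.22 ± 0.083) last, and no neighbours differed by more than their SD.

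**Figure D1:**
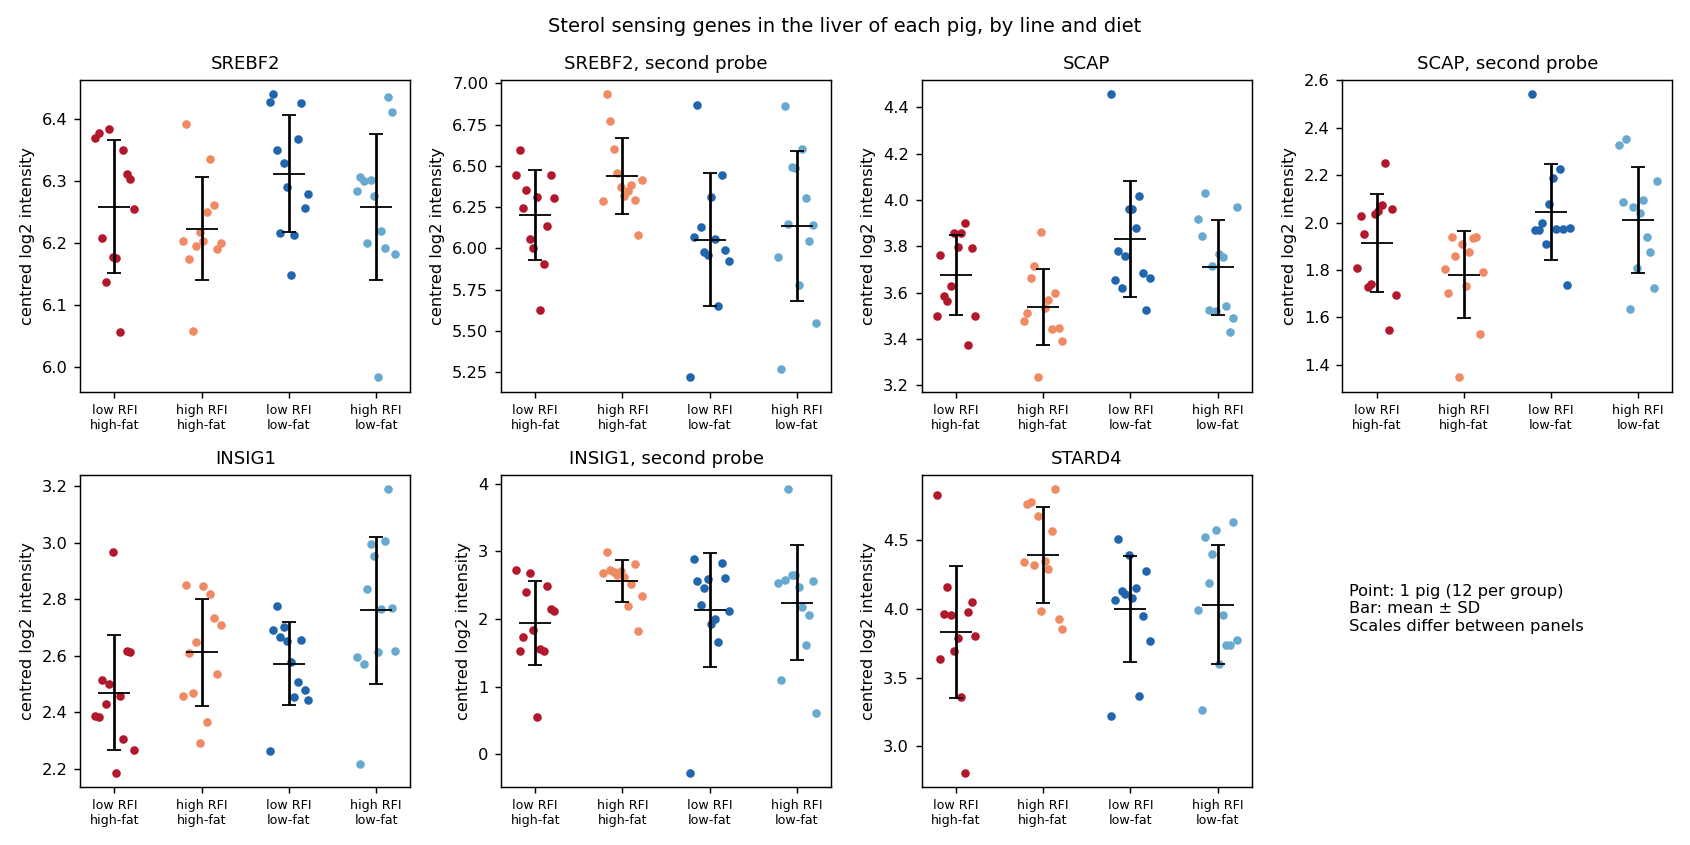
Centred log2 intensity of the 7 probes in each of the 48 pigs (points), with mean and SD of the 12 pigs of each line and diet (bars). Groups overlap at every probe, and the STARD4 panel shows the high RFI line on the high-fat diet highest, with a mean of 4.39 against 3.83 to 4.03 in the other groups.

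The line difference of SREBF2, low minus high RFI, was 0.045 on the log2 scale (SE 0.033, 95% interval -0.022 to 0.11, P = 0.186, P-BH = 0.613, limma). The diet difference, high-fat minus low-fat, was -0.044 (SE 0.033, interval -0.11 to 0.023, P = 0.193). Neither was called at P under 0.01 with a fold change over 1.1, the rule used throughout. For this probe the data thus bound any difference between lines to a fold change of about 1.1 or less, since a log2 change of 0.14 corresponds to that fold.

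The second SREBF2 probe varied more, with an SD of 0.35 between pigs of a group, and 65.8% of the tested probes had a smaller one. On the high-fat diet its level ran from 5.62 to 6.60 with a median of 6.27 in the low RFI line, and from 6.08 to 6.94 with a median of 6.38 in the high RFI line. On the low-fat diet it ran from 5.22 to 6.87 with a median of 6.02, and from 5.27 to 6.86 with a median of 6.15. The ranges overlapped, although 20 of 24 pigs on the high-fat diet exceeded the median of the low-fat diet. The diet difference of 0.23 (SE 0.10, P = 0.0286, P-BH = 0.285) was not called, nor was the line difference of -0.16 (SE 0.10, P = 0.115). For both effects, the estimates of the 2 SREBF2 probes had opposite signs, so averaging them turned the line difference to -0.058 and the diet difference to 0.091. From pig to pig, the deviations of the 2 probes from their group means were barely related (r = 0.13, rho = 0.049, permutation P = 0.418 and 0.753, n = 48).

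The second SREBF2 probe followed the probe of the unnamed clone with which it shares bases (r = 0.987, rho = 0.969, permutation P = 1e-05 for each, the smallest that 100000 resamples can give). The relation was 0.985 on scan day 1 and 0.989 on scan day 2, and 0.983 without the 2 pigs farthest from the median. The clone's probe gave a line difference of -0.21 (SE 0.11, P = 0.0618) and a diet difference of 0.23 (SE 0.11, P = 0.0381). These probes gave nearly the same pattern over pigs, and the first SREBF2 probe another one. With a run of 51 of 60 bases shared, such agreement was likely in advance. The clone's probe is therefore not independent support for the second SREBF2 probe. Which of the 2 SREBF2 probes follows the pig SREBF2 messenger was not tested, so each result is given by probe.

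SCAP, the chaperone, was called lower with the high-fat diet at both of its probes, and each call was lost under several other settings. With the first probe its level on the high-fat diet ran from 3.38 to 3.90 with a median of 3.69 in the low RFI line, and from 3.23 to 3.86 with a median of 3.52 in the high RFI line. On the low-fat diet it ran from 3.52 to 4.46 with a median of 3.77, and from 3.43 to 4.03 with a median of 3.73. The ranges overlapped, with 17 of 24 pigs fed the high-fat diet below the median of the other diet and 3 below its lowest pig. The diet difference was -0.16 (SE 0.059, 95% interval -0.28 to -0.044, P = 0.00835, P-BH = 0.186, limma), a 1.12-fold fall that was called.

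The second SCAP probe had medians of 1.99 and 1.83 in the low and high RFI lines on the high-fat diet, and of 1.97 and 2.05 on the low-fat diet. Its diet difference was -0.18 (SE 0.060, P = 0.00408, P-BH = 0.144) which was called too, with 18 of 24 pigs below the median of the low-fat diet. The SCAP probes were thus the 2 of the 7 probes called for diet, where 4.61% of all tested probes were called. They count as 1 gene, since their deviations from the group means were closely related (r = 0.87, rho = 0.86, permutation P = 1e-05 for each, the smallest possible). In whole liver, less RNA per cell cannot be told apart from fewer cells of a type that expresses the gene, here and in every result that follows. The call with the first probe did not hold with slide as a block (P = 0.0104), with normexp background correction (P = 0.0256) or without a filter on dim probes (P = 0.0152). It was also lost without any 1 of 23 of the 48 pigs, with a P of at most 0.0154. Within the scan days the difference was -0.071 on day 1 and -0.25 on day 2. The call with the second probe held when any 1 pig was left out, but not with normexp (P = 0.0130), with unsubtracted intensity (P = 0.0127), on day 1 (-0.11, P = 0.0875) or on day 2 (-0.25, P = 0.0242). Fits for 1 scan day used 24 of the 48 pigs, here and below, so a call can be lost there from fewer samples.

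Within single lines, only the second SCAP probe was called for diet. Among pigs from the high RFI line, all 12 on the high-fat diet lay below the median of the 12 on the low-fat diet, with a difference of -0.23 (SE 0.084, P = 0.00912, P-BH = 0.621), where 1.58% of all probes were called. In the low RFI line no probe of the 4 genes was called for diet, where 2.68% of all probes were. There the second SCAP probe gave -0.13 (SE 0.084, P = 0.128), and the test of the difference between the lines did not pass (interaction 0.099, SE 0.12, P = 0.412). The call in the high RFI line was lost with slide as a block (P = 0.0114), normexp (P = 0.0384), unsubtracted intensity (P = 0.0400), no filter (P = 0.0133), deposited log2 values (P = 0.0302) and either scan day alone (P = 0.151 and 0.0344), and without any 1 of 13 of the 48 pigs, with a P of at most 0.0259.

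Between the lines, the first SCAP probe was 0.13 higher in the low RFI line (SE 0.059, interval 0.012 to 0.25, P = 0.0315, P-BH = 0.268) and the second 0.084 higher (SE 0.060, P = 0.165). Neither was called, although with the first probe 20 of 24 low RFI pigs exceeded the median of the high RFI pigs. In the order of group means, SCAP was highest in the low RFI line on the low-fat diet (3.83 ± 0.25), followed by the high RFI line on that diet (3.71 ± 0.21), the low RFI line on the high-fat diet (3.68 ± 0.17) and the high RFI line on the high-fat diet (3.54 ± 0.16). No neighbours in that order differed by more than their SD.

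INSIG1, which retains SCAP in the endoplasmic reticulum, was lower in the low RFI line at its first probe. The level ran from 2.19 to 2.97 with a median of 2.44 in the low RFI line and from 2.29 to 2.85 with a median of 2.63 in the high RFI line on the high-fat diet. On the low-fat diet it ran from 2.26 to 2.78 with a median of 2.61, and from 2.22 to 3.19 with a median of 2.77. The ranges overlapped under both diets, but 20 of 24 low RFI pigs fell short of the median of all high RFI pigs. Under each diet, 11 of 12 low RFI pigs fell short of the high RFI median of that diet. In the order of means, the high RFI line on the low-fat diet (2.76 ± 0.26) came before the high RFI line on the high-fat diet (2.61 ± 0.19), the low RFI line on the low-fat diet (2.57 ± 0.15) and the low RFI line on the high-fat diet (2.47 ± 0.20), and neighbours differed by less than their SD.

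The line difference of INSIG1 was -0.17 (SE 0.060, 95% interval -0.29 to -0.045, P = 0.00796, P-BH = 0.123, limma), a 1.12-fold fall. It was the only call among the 7 probes for line, where 6.91% of all tested probes were called. Under each diet alone the difference was -0.14 (high-fat, P = 0.0988) and -0.19 (low-fat, P = 0.0301), neither of them called. The call was lost with the deposited log2 values (-0.13, P = 0.0268), with normexp background correction (-0.12, P = 0.0317) and with slide as a block (P = 0.0111), and also without any 1 of 22 of the 48 pigs, with a P of at most 0.0152. The diet difference of the same probe was -0.13 (SE 0.060, P = 0.0398, P-BH = 0.320) and was not called.

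The second INSIG1 probe spread far more widely between pigs, with an SD of 0.69 within groups, against 0.20 with the first, and 93.1% of all probes had a smaller one. The levels in the low RFI line ran from 0.56 to 2.72 on the high-fat diet and from -0.27 to 2.89 on the low-fat diet. In the high RFI line they ran from 1.82 to 2.99 and from 0.61 to 3.92. The medians were 1.98 and 2.67 in the low and high RFI lines on the high-fat diet, and 2.33 and 2.50 on the low-fat diet. The ranges overlapped, and on the high-fat diet 5 of the 12 low RFI pigs lay below the lowest high RFI pig. The line difference was -0.37 (SE 0.19, interval -0.76 to 0.024, P = 0.0651), larger than with the first probe but not called, and the diet difference was 0.064 (SE 0.19, P = 0.744). The deviations of the 2 INSIG1 probes were only loosely related (r = 0.40, rho = 0.30, permutation P = 0.00720 and 0.0365).

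**Figure D2:**
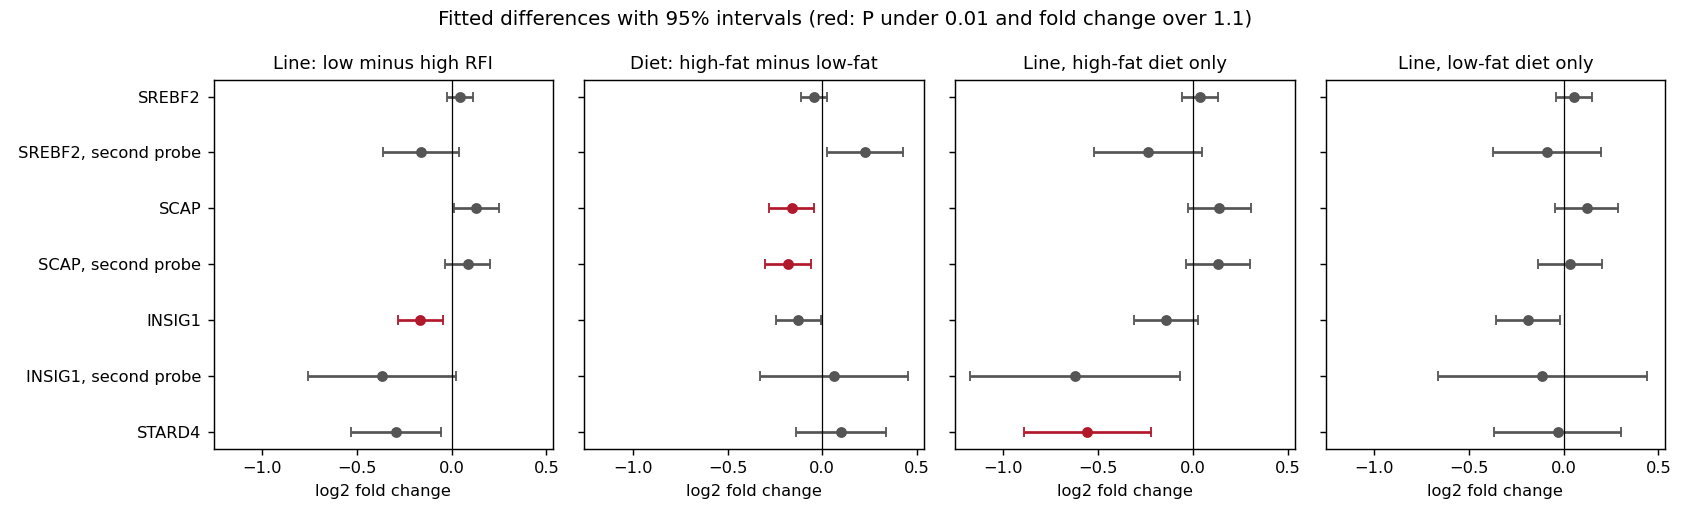
Fitted log2 fold changes of the 7 probes with 95% intervals, for line (low minus high RFI), diet (high-fat minus low-fat) and line under each diet. INSIG1 was called for line, both SCAP probes for diet and STARD4 for line on the high-fat diet, where its difference was -0.56 against -0.031 on the low-fat diet.

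STARD4, the sterol carrier, was under-expressed in the low RFI line when pigs ate the high-fat diet. On that diet its level ran from 2.81 to 4.83 with a median of 3.88 in the low RFI line, and from 3.85 to 4.87 with a median of 4.34 in the high RFI line. The ranges overlapped, but 11 of 12 low RFI pigs had less than the high RFI median, and 6 had less than the lowest high RFI pig. The difference was -0.56 (SE 0.17, 95% interval -0.89 to -0.22, P = 0.00157, P-BH = 0.115, limma), a 1.47-fold fall. STARD4 was the only one of the 7 probes called for line on the high-fat diet, where 3.41% of all probes were called. The second INSIG1 probe had a larger difference there that was not called (-0.62, SE 0.27, P = 0.0283, limma). On the low-fat diet that INSIG1 probe gave -0.11 (P = 0.686), and its interaction was -0.51 (SE 0.39, P = 0.196). The STARD4 call held when any 1 pig was left out (P from 0.000183 to 0.00524). The STARD4 differences were -0.50 on scan day 1 (P = 0.0262) and -0.61 on scan day 2 (P = 0.0207).

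On the low-fat diet the STARD4 levels ran from 3.22 to 4.51 with a median of 4.09 in the low RFI line, and from 3.26 to 4.63 with a median of 3.97 in the high RFI line. The difference was -0.031 (SE 0.17, interval -0.37 to 0.30, P = 0.853). None of the 7 probes was called for line on this diet, where 3.84% of all probes were. The test of whether the line difference depended on the diet gave -0.53 for STARD4 (SE 0.24, P = 0.0297, P-BH = 0.99987), which was not called, nor was the interaction of any other probe of the 4 genes, where 0.376% of all probes were called. The STARD4 line differences under the 2 diets were thus not shown to differ by the rule used here. Of 48 fits with 1 pig left out, 47 left the STARD4 interaction uncalled, with a P of at most 0.0566 (limma). It was called only without pig 3 of the low RFI line on the high-fat diet (-0.62, P = 0.00803). That pig had the highest STARD4 deviation from its group mean.

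Averaged over the diets, the line difference of STARD4 was -0.29 (SE 0.12, interval -0.53 to -0.058, P = 0.0157, P-BH = 0.183), with 21 of 24 low RFI pigs under the high RFI median, and it was not called. It was called without pig 3 of the low RFI line on the high-fat diet (-0.34), pig 53 of the high RFI line on that diet (-0.32), or pigs 11 of the low and 7 of the high RFI line on the low-fat diet (-0.32 and -0.33), each left out alone. The diet difference was 0.098 (SE 0.12, P = 0.410). In the high RFI line alone STARD4 was 0.36 higher on the high-fat diet (SE 0.17, P = 0.0349), which was not called. In the order of means, the high RFI line on the high-fat diet (4.39 ± 0.35) stood above the high RFI line on the low-fat diet (4.03 ± 0.44), the low RFI line on the low-fat diet (4.001 ± 0.38) and the low RFI line on the high-fat diet (3.83 ± 0.48). No step in that order exceeded the larger SD of its neighbours.

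None of the 7 probes passed a P-BH of 5% in any of the 7 contrasts, whereas 3.93% of all tested probes passed it for line and 0.455% for diet. The calls above therefore rest on the nominal P with a minimum fold change, and the next comparisons turn to how the genes moved together from pig to pig.

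This used the deviation of each pig from the mean of its line and diet group, so that group differences did not enter. Of the 6 pairs of first probes, 3 passed a P-BH of 5% over the 6. SCAP moved against INSIG1 (r = -0.43, rho = -0.43, permutation P = 0.00228 and 0.00326, P-BH = 0.0137 and 0.0196) and against STARD4 (r = -0.41, rho = -0.37, P = 0.00530 and 0.0135, P-BH = 0.0159 and 0.0377). INSIG1 and STARD4 rose and fell together (r = 0.35, rho = 0.36, P = 0.0198 and 0.0189, P-BH = 0.0396 and 0.0377). SREBF2 did not pass with SCAP (r = -0.12, rho = -0.11, P = 0.449 and 0.466), INSIG1 (r = 0.16, rho = 0.17, P = 0.318 and 0.252) or STARD4 (r = 0.13, rho = 0.12, P = 0.392 and 0.434).

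Without the 2 pigs farthest from the median of the gene named first in each pair (SCAP, SCAP and INSIG1), the 3 relations were -0.33, -0.29 and 0.33. SCAP with INSIG1 gave -0.56 on scan day 1 and -0.37 on day 2. SCAP with STARD4 gave -0.088 on day 1 and -0.59 on day 2, and it was -0.61 in the low RFI line against -0.15 in the high RFI line, a difference that was not tested. INSIG1 with STARD4 gave 0.23 and 0.48. With the deposited log2 values the 3 relations were weaker (r = -0.27, -0.33 and 0.33) and none passed a P-BH of 5% over the 6. The mean of 5 Kupffer cell and macrophage markers, which ran from 3.60 to 4.52 in the low RFI line and from 3.72 to 4.67 in the high RFI line, gave r = -0.42 with INSIG1 (rho = -0.36, P = 0.00579 and 0.0157, P-BH = 0.163 and 0.367) and r = 0.35 with SCAP (rho = 0.28, P = 0.0171 and 0.0562, P-BH = 0.228 and 0.510). The mean of 3 adipocyte markers, from -1.46 to -0.46 in the low RFI line and from -1.42 to -0.63 in the high RFI line, gave r = 0.40 with SCAP (rho = 0.35, P = 0.00814 and 0.0183, P-BH = 0.163 and 0.367), with -0.10 on day 1 and 0.70 on day 2, and r = -0.31 with STARD4 (rho = -0.30, P = 0.0345 and 0.0399, P-BH = 0.345 and 0.510). None of the 40 relations between members and marker means passed a P-BH of 5%, and their part in the relations between the genes was not tested.

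With STARD4, the second probes of SREBF2 and INSIG1 gave larger r than the first, a difference that was not tested. Over 12 relations of second probes, that of SREBF2 moved with STARD4 (r = 0.65, rho = 0.58, P = 1e-05 and 4e-05, the former the smallest possible, P-BH = 6e-05 and 0.00016). It was 0.62 on scan day 1, 0.66 on day 2 and 0.60 without the 2 farthest pigs. Here and for the second INSIG1 probe, the farthest pigs were taken on the second probe, not on STARD4 or SCAP. The second INSIG1 probe also moved with STARD4 (r = 0.62, rho = 0.71, P = 3e-05 and 1e-05, P-BH = 0.00012 and 6e-05) and gave 0.64 and 0.61 on the scan days and 0.59 without the 2 farthest pigs. It moved against SCAP (r = -0.54, rho = -0.42, P = 0.00075 and 0.00555, P-BH = 0.00225 and 0.0166), with -0.32 on day 1, -0.65 on day 2 and -0.33 without the 2 farthest pigs.

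**Figure D3:**
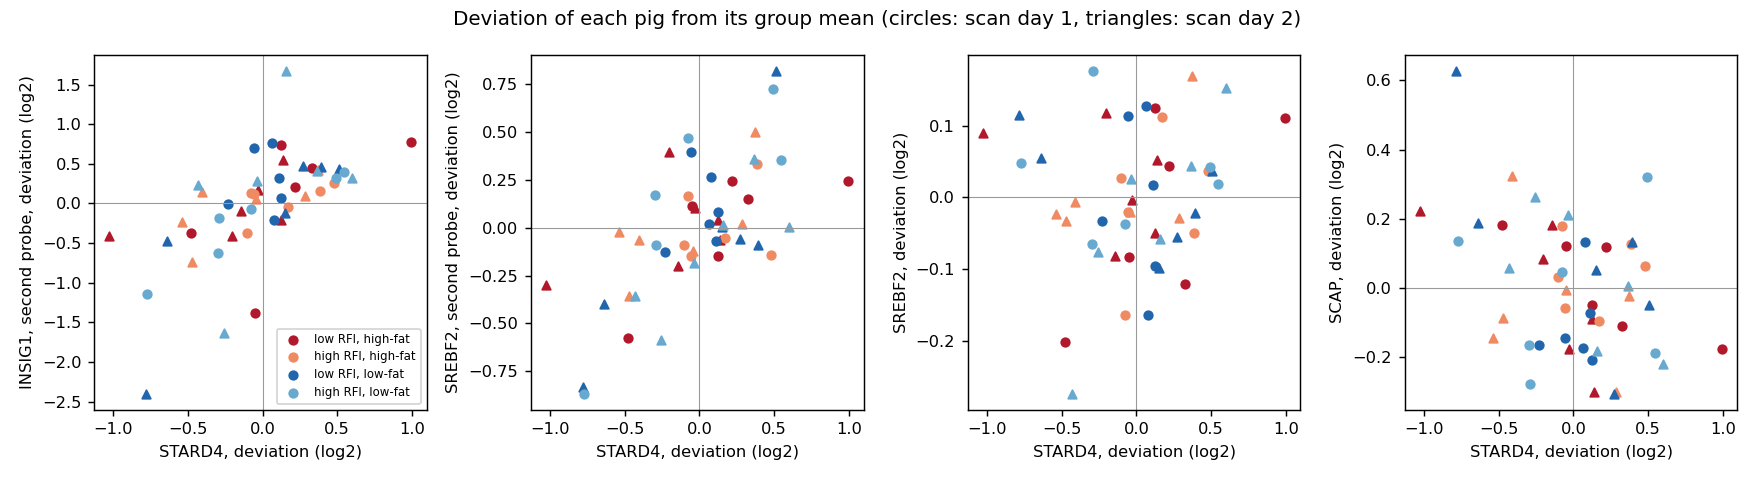
Deviation of each of 48 pigs from the mean of its group (log2) for STARD4 on the x axis against the second INSIG1 probe, the second SREBF2 probe, the first SREBF2 probe and the first SCAP probe on the y axes, with colour for group and symbol for scan day. Points rise together in the first panels (r = 0.62 and 0.65), show no slope with the first SREBF2 probe (r = 0.13) and fall with SCAP (r = -0.41).

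By deviation from the group mean, some pigs stood at the ends of several of these distributions. Pig 4 of the low RFI line on the low-fat diet had the lowest second INSIG1 probe, the second lowest STARD4 and second SREBF2 probe, the third lowest first INSIG1 probe, and the highest SCAP at both probes. Its deviations from the group means were -2.40 for the second INSIG1 probe, -0.78 for STARD4, -0.83 for the second SREBF2 probe and 0.63 for the first SCAP probe. Its first SREBF2 probe deviated by 0.12. Pig 7 of the high RFI line on the low-fat diet had the lowest second SREBF2 probe (-0.87) and the lowest first INSIG1 probe (-0.54), and its STARD4 deviated by -0.77. The arrays of these pigs, 4 and 7, also had the lowest median correlations with the other arrays (0.979 and 0.980, where the highest was 0.985), and the part of this in their values was not tested. At the other end, pig 3 of the low RFI line on the high-fat diet had the highest STARD4 (0.997) and the second highest INSIG1 second probe (0.78).

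The enzymes of cholesterol synthesis, a pathway that SREBP-2 switches on, were examined next. Whether each listed enzyme is a target of SREBP-2 was not tested. Of 23 listed enzymes, 18 were tested. None was called for line, where 9.31% of all named genes had a called probe, and their median line difference was -0.054 with 12 of 18 lower, against a median of 0.0057 over all named genes. The median diet difference was 0.098 with 16 of 18 higher, against -0.016 over all named genes. The median of the interaction was -0.28 with 16 of 18 below 0, the sign of STARD4, against 0.00087 over all named genes, and none was called.

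From pig to pig, the probes of the 4 genes differed in their relation to these enzymes. STARD4 was positively related to all 18, with a median r of 0.72 (rho 0.72), and 16 of 18 passed a P-BH of 5% over the 469 relations between the 7 probes and the 67 tested pathway genes. The median was 0.69 on scan day 1, 0.76 on scan day 2, and 0.74 without the 2 farthest pigs. For the enzymes, the farthest pigs were taken on the probe of the 4 genes. Among the closest were FDFT1 (squalene synthase, r = 0.84, rho = 0.84) and NSDHL (r = 0.82, rho = 0.81), each at a permutation P of 1e-05. The weakest were PMVK (r = 0.27) and LBR (r = 0.35).

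The second SREBF2 probe gave a median r of 0.70 (rho 0.61) with 17 of 18 past a P-BH of 5%, and the second INSIG1 probe a median of 0.64 (rho 0.55) with 14 of 18. On the scan days these medians were 0.70 and 0.75, and 0.48 and 0.72, and without the 2 farthest pigs 0.65 and 0.50. The first INSIG1 probe gave a median of 0.37 (rho 0.33) with 8 of 18, and on the scan days 0.28 and 0.44. The first SREBF2 probe gave a median of 0.12 (rho 0.14) with 0 of 18 past a P-BH of 5%, the highest being TM7SF2 (r = 0.26).

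SCAP was negatively related to all 18 enzymes at both probes. The median r was -0.42 (rho -0.30) with the first probe, and 10 of 18 passed a P-BH of 5% by Pearson's r but 2 by rho. With the second probe the median was -0.34 (rho -0.29), with 6 by Pearson's r and 1 by rho. The strongest was IDI1 (r = -0.58). On scan day 1 the median was only -0.091, against -0.56 on day 2, and it was -0.25 without the 2 farthest pigs, so the inverse relation was weak among the pigs scanned on the first day.

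**Figure D4:**
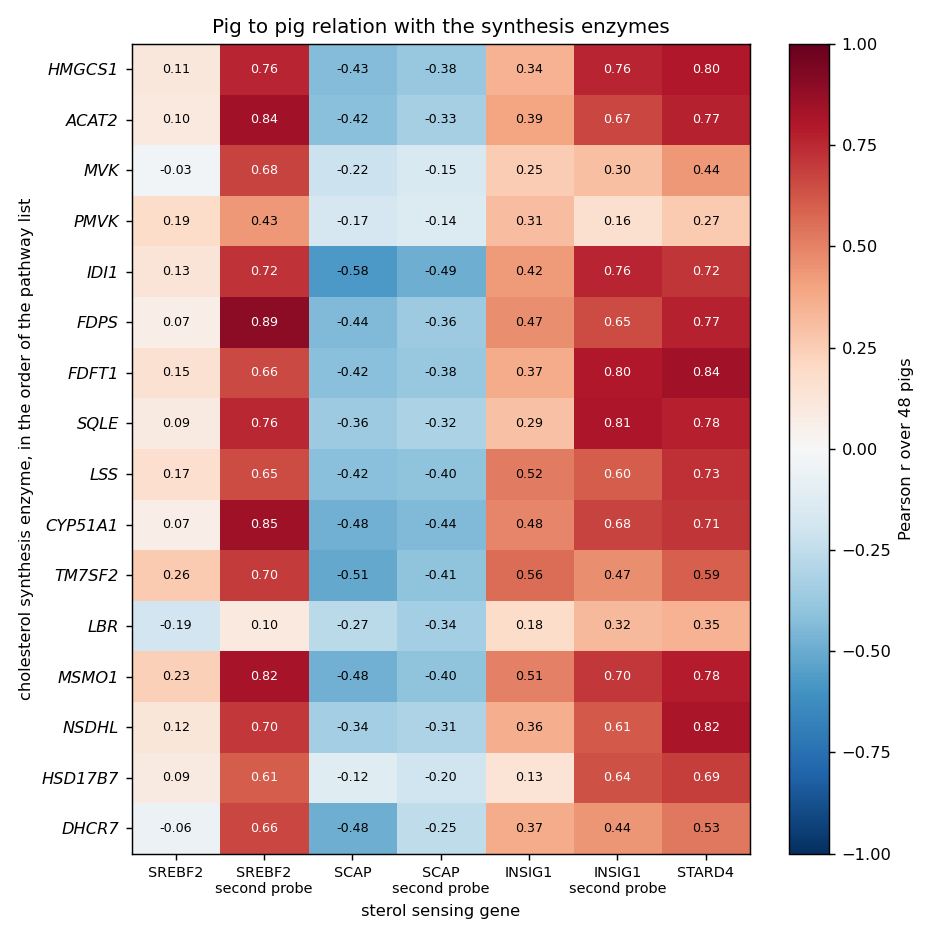
Pearson r over 48 pigs (colour and number) between the deviations of each of the 7 probes (columns) and of 16 of the 18 tested cholesterol synthesis enzymes (rows). Medians are over all 18. STARD4 and the second SREBF2 and INSIG1 probes are positive throughout (medians 0.72, 0.70 and 0.64), the first SREBF2 probe is near 0 (median 0.12) and both SCAP probes are negative (medians -0.42 and -0.34).

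The genes most alike to each member, among 10670 named genes with 1 probe each, are given as a description with no test, because they were picked for their r. For STARD4, FDFT1 (r = 0.84), NSDHL (0.82), ACLY (ATP citrate lyase, which makes cytosolic acetyl-CoA, 0.80) and HMGCS1 (0.80) were among the 5 closest. For the second probes, looked up after values were seen, that of SREBF2 was closest to FDPS (r = 0.89), ACSS2 (0.87), MMAB (0.85), EXTL1 (0.85) and CYP51 (0.85). For the second INSIG1 probe, SQLE (0.81), FDFT1 (0.80) and HMGCS1 (0.76) were among the 5 closest.

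The first probes had other neighbours. The first INSIG1 probe was closest to ALDH1L1 (r = 0.75), ABCB11 (the bile salt export pump, 0.67), GYG2 (0.66), ORMDL3 (0.65) and CYP27A1 (sterol 27-hydroxylase, 0.64). The first SREBF2 probe was closest to MAPKAPK2 (0.80), SUPT6H (0.76), GJA1 (0.70), C7ORF59 (0.66) and TAP2 (0.65). The first SCAP probe was closest to IPO9 (0.78), C19ORF50 (0.73), CCDC58 (0.73), SF3B2 (0.73) and C19ORF47 (0.72). None of these genes was among the listed cholesterol synthesis enzymes.

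The remaining pathway genes were counted by list. Of 24 genes of SREBP activation, retention and degradation, 22 were tested, and 1 rose and none fell for line, or 4.55% against the 9.31% of all named genes with a called probe. For diet, 1 rose and 4 fell, or 22.7% against 5.98% of all named genes. A gene counted if any of its probes was called, so genes with more probes had more occasions to count. The 22 genes had 62 tested probes, and the 10736 named genes had 20963. SREBF1, which encodes the sister factor of fatty acid synthesis, fell at 1 of its 3 probes with the high-fat diet (-0.65, SE 0.11, P-BH = 0.00158), while its brightest probe gave -0.12 (P = 0.0313). ERLIN1, an endoplasmic reticulum protein that takes part in degradation of the sterol sensors, fell by 0.22 (SE 0.052, P-BH = 0.0388). NFYA and NFYB, subunits of a factor that binds beside SREBP, fell by 0.20 (P-BH = 0.149) and 0.38 (P-BH = 0.0822) at their strongest probes, while their brightest gave -0.19 (P = 0.0172) and -0.34 (P = 0.00722). SP1 rose by 0.25 at 1 of its 3 probes (P-BH = 0.194), while its brightest probe gave 0.052 (P = 0.219). NFYB was also the 1 gene that rose for line, at 1 of its 4 probes (0.31, SE 0.11, P-BH = 0.0981), while its brightest gave 0.31 (P = 0.0145). VCP, an ATPase that extracts proteins for degradation, was the 1 gene called for the interaction, at 1 of its 7 probes.

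INSIG2, the paralog of INSIG1, was not called for line or diet, and its relation to the members, singled out after the values were seen, ran the other way. It moved against STARD4 (r = -0.54, rho = -0.57) and the second SREBF2 probe (r = -0.59, rho = -0.62), both past a P-BH of 5% over the 469 relations, and gave -0.49 and -0.52 on scan day 1 and -0.55 and -0.62 on scan day 2. SREBF1 moved with the first SREBF2 probe (r = 0.56, rho = 0.49, 0.61 and 0.51 on the scan days), whereas with the second it gave r = 0.23 (rho = 0.15) and did not pass.

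Of 23 genes of sterol transport, uptake and storage, 19 were tested, and 2 fell for line while 2 rose for diet, or 10.5% for each effect, against 9.31% and 5.98% of all named genes. The share for line is near that of all genes, and these 19 genes had 47 tested probes. STARD10, a lipid carrier of the family of STARD4, fell by 0.63 in the low RFI line at its strongest probe (SE 0.12, P-BH = 0.00039). NCEH1, a cholesteryl ester hydrolase, fell by 0.28 for line (P-BH = 0.0599) and rose by 0.28 with the high-fat diet (P-BH = 0.125) at its strongest probes, while its brightest gave -0.20 (P = 0.0155) and 0.22 (P = 0.00906). SOAT2, which esterifies cholesterol in hepatocytes, rose by 0.43 with that diet (SE 0.14, P-BH = 0.128). NPC1, which exports cholesterol from lysosomes, was not called but moved with STARD4 (r = 0.77, rho = 0.75) and with the second INSIG1 probe (r = 0.69, rho = 0.66), also noted after the values were seen. Of 10 LXR and sterol efflux genes, 8 were tested, with 16 probes. For line 1 rose and for diet 1 fell, or 12.5% for each effect, against 9.31% and 5.98% of all named genes. RXRB rose by 0.19 for line (P-BH = 0.136) and ABCA1, which exports cholesterol to lipoproteins, fell by 0.21 with the high-fat diet (P-BH = 0.150).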

How the data were processed

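Liver RNA of 48 pigs was measured on 1 array per pig. The authors deposited scanner output with an intensity per spot (Feature Extraction 10.7.3.1, per the file headers), and a table of log2 values. That deposited log2 table equals the log2 median intensity without background subtraction, centred per array (largest SD of the difference 0.00103). R 2.10.0 is named in the submitters' processing notes. No genome build is named in the files, so no coordinates are given.

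Here background-subtracted intensities were log2 transformed and centred on the array median. Outlier spots (483) were left out, none of them on a probe of the 4 genes. A probe was tested if 12 or more arrays showed it well above background. A model of line, diet and interaction was fitted with limma 3.58.1 in R 4.3.3 to 45236 probes, tested first on simulated data. Probes were called at P under 0.01 and a fold change over 1.1, with P-BH over all probes beside. The brightest probe stood for a gene, and the others are given beside it. Pathway genes were named where a probe was called for line, diet or interaction, and for each first probe the 5 genes of highest r. Symbols came from the reference table of Sscrofa11.1 by accession (7173 probes) or from the scanner files (17155), and 35977 probes had none. Relations over pigs used 100000 permutations within groups. Those of second probes, of pathway genes and of cell type markers were added after values were seen. Alternatives were other backgrounds, centrings, filters, values, blocks for slide and scan day, and each pig left out. The number of arrays limits the precision.

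The 4 genes and all lists were chosen with earlier results of these data known. Promoters and proteins were not analysed here, and some items within the naming rule are not reported here.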

Additional observations from a re-analysis of the deposited data

Results flagged for a closer look

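The line difference of VCP, an ATPase that pulls proteins out of the endoplasmic reticulum membrane for degradation, differed between the diets at 1 of its 7 probes. The interaction was -0.43 on the log2 scale (SE 0.13, P = 0.00202, P-BH = 0.99987, limma), and the brightest probe of VCP gave -0.15 (P = 0.284). It passed the nominal rule and not the adjustment over all probes, of which 0.376% passed the nominal rule, and its cause was not tested.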

How the results depend on the processing

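The STARD4 line difference on the high-fat diet kept its sign under every alternative run and its call under all but the scan days alone (-0.50 on day 1 and -0.61 on day 2). The line difference of INSIG1 lost its call with normexp (-0.12), with the median intensity lacking background subtraction (-0.13), with deposited log2 values (-0.13), with slide as a block (-0.17), on day 1 (-0.15), on day 2 (-0.18) and as a mean over both probes (-0.27). The diet difference of SCAP lost it with normexp (-0.13), with no filter (-0.16), with the slide block (-0.16), on day 1 (-0.071) and on day 2 (-0.25), and its second probe with normexp (-0.14), unsubtracted intensity (-0.14) and on either day (-0.11 and -0.25). Fits and relations for 1 scan day used 24 of the 48 pigs, so they can lose a call from fewer samples. Causes were not tested.

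Some reversals concerned values near 0 or probes that disagree, and others did not. For line on the low-fat diet, the second INSIG1 probe gave 0.38 on day 1 (SE 0.31, P = 0.231, limma). With all pigs it gave -0.11 (SE 0.27, P = 0.686), and neither value was called. The interaction turned for SREBF2 with quantile normalization (0.013) and on day 1 (0.0057), and for SCAP with normexp (-0.0049) and on day 2 (-0.039). STARD4 turned for line on the low-fat diet with normexp (0.013) and on day 1 (0.051), for diet in the low RFI line on day 1 (0.0079) and for diet on day 2 (-0.089). The SREBF2 diet difference in the high RFI line turned with normexp (0.032), unsubtracted intensity (0.014), deposited values (0.0059) and on day 2 (0.0061). Averaging probes turned SREBF2 for line (-0.058; high-fat -0.10, low-fat -0.016) and diet (0.091; low RFI 0.049, high RFI 0.13), and INSIG1 for the interaction (-0.23) and for diet in the high RFI line (0.085). On day 1 the second SCAP probe turned for line (-0.0033; low-fat -0.023) and the second INSIG1 probe for line on the low-fat diet (0.38), as it did for diet in the low RFI line on day 2 (0.012).

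With 1 pig left out, the line difference ranged from -0.19 to -0.15 for INSIG1 and from -0.34 to -0.25 for STARD4, and the diet difference from -0.18 to -0.13 for SCAP and from -0.15 to -0.11 for INSIG1. The interaction ranged from -0.011 to 0.076 for SCAP, from -0.035 to 0.0058 for SREBF2 and from -0.62 to -0.43 for STARD4. Line on the low-fat diet ranged from -0.10 to 0.040 for STARD4 and from -0.24 to -0.15 for INSIG1. For the second probes, INSIG1 ranged from -0.045 to 0.14 for diet and from -0.26 to 0.11 for line on the low-fat diet, SCAP from -0.011 to 0.066 for line on the low-fat diet, and SREBF2 from 0.19 to 0.26 for diet.

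Of the relations over pigs, SCAP with INSIG1, SCAP with STARD4 and INSIG1 with STARD4 no longer passed with unsubtracted intensity (r = -0.251, -0.316 and 0.314), deposited values (-0.268, -0.334 and 0.325) or day 1 (-0.555, -0.0883 and 0.227). On day 2 SCAP with INSIG1 (-0.366) and INSIG1 with STARD4 (0.483) did not pass, and SREBF2 with SCAP turned (0.101). SREBF2 with INSIG1 and with STARD4 passed as a mean over probes (0.545 and 0.644) and with its second probe (0.365 and 0.654), while SCAP with INSIG1 did not with the second SCAP probe (-0.308).

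Over all probes, calls for the interaction numbered 112 with normexp and 111 with unsubtracted intensity, against 170, each of 45236 tested probes. They numbered 93 of 37378 with deposited values and 272 of 60305 with no filter, so these counts rest on other numbers of probes. Calls for diet in the high RFI line numbered 1332 with normexp, against 715. With 24 pigs of 1 scan day, counts on days 1 and 2 were 1738 and 1636 for line, 807 and 934 for diet, 717 and 886 for line on the high-fat diet, 876 and 900 for line on the low-fat diet, 317 and 805 for diet in the low RFI line, and 392 and 383 in the high RFI line, from fewer samples.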
